A study of Sus scrofa with 24 samples.

Results

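The oxyntic mucosa, which lines the part of the stomach where acid is made, was compared between 6 CA MCT piglets (pigs 7 to 12) and 6 SA CON piglets (pigs 13 to 18), the 2 groups that differed in both factors of the study at once. They made up 12 of the 24 piglets of the series, were chosen by their sample titles, and were compared over all 10882 genes that could be given a single symbol, each measured by its brightest transcript cluster (the set of probes that reads one transcript). The question was how the mucosa of piglets given a complex microbiota and a diet with medium chain triglycerides differed from that of piglets given neither.

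All piglets were of the cross (Great York x Pietrain) x 'Dalland', were born by caesarean section, received a starter of known bacterial strains on days 1 to 3 and were killed at 3 weeks of age. The CA piglets (complex association) then received diluted sow faeces on days 3 to 4, and the SA piglets (simple association) received a placebo. In the MCT diet coconut oil took the place of most, but not all, of the soy oil and palm oil of the CON diet, so that one fat was largely exchanged for another. The remaining groups, SA MCT and CA CON, also 6 piglets each, had one of these changes only, and they are set beside the main comparison where that helps.

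The design limits every value below. The labels put the CA and the SA piglets in separate rooms, but in a text that speaks of 12 piglets, while the study's methods put piglets of each group in every pen or room. Whether room and association coincided is therefore not known, and if they did they cannot be told apart. Neither litter and sex nor pen, strip and scan date were named per piglet. The tissue was analysed in bulk, so fewer cells of a type and less RNA per cell cannot be told apart.

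The oxyntic glands hold parietal cells, which secrete acid through the proton pump, chief cells, which release pepsinogen, mucous cells, which coat the surface, and scattered endocrine cells such as those that make ghrelin. Before weaning this mucosa still matures, with acid output and enzyme secretion building up. Medium chain fatty acids are partly freed in the stomach by lipase and are burned in mitochondria, and octanoic acid is also the acyl group that activates ghrelin. A gut microbiota is known to act on mucosal immune genes such as those driven by interferons.

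The arrays were of comparable brightness, with a median intensity of 23.13 to 26.44 over the 24 arrays. The lowest was that of CA CON pig 4, whose array also correlated least of all 24 with the others (median 0.946). That piglet enters every CA CON value and interaction term below, and these are not given without it. The fit takes the spread of each gene from all 24 arrays. Pig 4 therefore also enters the errors, p values and intervals of CA MCT against SA CON, but not the differences. Without pig 10, 242 genes had an unadjusted p under 0.05 by limma's test, against 415 without pigs 4 and 10. The proton pump and pepsinogen genes were among the bright ones in all 12 piglets, as the tissue label called for, with ATP4A between 3030 and 3750 and PGA5 between 3370 and 4690. Of the 12 arrays compared, that of CA MCT pig 10 correlated least with the other arrays (median 0.975), and SA CON pig 18 stood apart in its cell type genes. The mean log2 deviation of the parietal cell markers was -0.50 in pig 18, against -0.06 to 0.19 in the other SA CON piglets, while that of the epithelial markers was 0.47, against -0.21 to 0.21. Many gene groups moved when these 2 or a single piglet were left out, and such values are given beside the groups named below.

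No gene differed between CA MCT and SA CON piglets after adjustment over all genes. By limma's moderated test 0 of 10882 genes (0.0%) had an adjusted p under 0.05, and the lowest adjusted p was 0.999. At an unadjusted p under 0.05 there were 277 genes (2.55%), 148 higher (1.36%) and 129 lower (1.19%) in CA MCT, where 544 would be below that limit if p values were spread evenly. The differences were small, as 99.7% of the genes lay within 0.5 on the log2 scale and the median over all genes was 0.0008. The 95% interval of a difference, taken per gene without adjustment, reached 0.23 to either side in the median gene. It reached 0.16 to 0.37 from the 10th to the 90th percentile. Differences smaller than a gene's own interval could not be told from 0 with 6 piglets per group. A call after adjustment needs more, and the highest difference of all genes, 0.98, did not pass. No gene named below therefore passed the test, and what follows gives the values of the genes and groups that stood at the ends of the distribution, as descriptions.

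**Figure D1:**
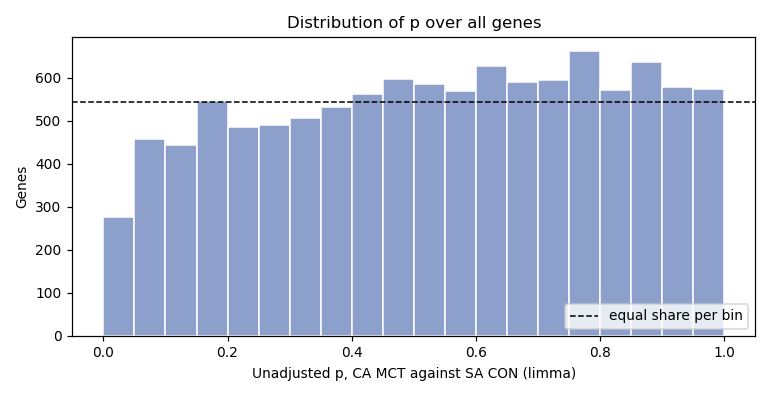
Number of genes (y axis) in 20 bins of the unadjusted p of CA MCT against SA CON (x axis), with a dashed line at an equal share per bin. The lowest bin holds 277 genes, below the line.

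The values of the 6 CA MCT piglets did not overlap those of the 6 SA CON piglets in 21 genes (0.193%), 15 with the higher values in CA MCT (0.138%) and 6 with the lower (0.0551%). Of these 21 genes, 11 were dim, with a mean below the lowest array median of 23.13, and so were 40.9% of all genes tested.

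ITGA8, among the 10 genes with the highest test statistic, codes for an integrin subunit that pairs with beta 1 and binds matrix proteins such as fibronectin on smooth muscle and other mesenchymal cells. It had intensities of 121 (lowest), 131 (median) and 144 (highest) in CA MCT piglets, against 73.1, 93.1 and 120 in SA CON piglets, so that the groups did not overlap. The log2 difference was 0.46 ± 0.118 (SE), a 1.37-fold higher value, with an unadjusted p of 0.0007. In the piglets with only one of the changes its median lay in between, at 106 in SA MCT and 112 in CA CON, and the log2 differences from SA CON were 0.14 and 0.22.

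ITGB3, the integrin beta 3 subunit of platelets, endothelium and osteoclasts, had 76.3, 78.7 and 94.9 in CA MCT piglets, against 52.2, 70.0 and 73.7 in SA CON piglets. All 6 CA MCT values lay above all 6 SA CON values, with a log2 difference of 0.35 ± 0.114 (unadjusted p = 0.00459). The single changes gave 0.32 in CA CON and 0.01 in SA MCT. FN1, which codes for fibronectin, a ligand of both integrins, had 1330, 1440 and 2120 in CA MCT piglets and 926, 1280 and 1390 in SA CON piglets. Its groups overlapped, its highest value was that of pig 10, and its log2 difference was 0.34 ± 0.109 (unadjusted p = 0.00478).

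RASGRP1, PLCL1 and SRPX2 were also among those 10 genes. RASGRP1 is a Ras activator of T cells and mast cells that responds to diacylglycerol. It had 446, 523 and 639 in CA MCT piglets, against 304, 409 and 522 in SA CON piglets. The groups overlapped, and its difference of 0.34 ± 0.108 on the log2 scale stood beside 0.32 in SA MCT and 0.28 in CA CON, so that the joint difference was no greater than the sum of the single ones. PLCL1, a phospholipase C relative without enzyme activity, had 21.1, 28.6 and 34.2 in CA MCT piglets, against 12.3, 19.8 and 25.9 in SA CON piglets, a log2 difference of 0.56 ± 0.16. SRPX2, a secreted protein tied to the urokinase receptor and vessel growth, had 28.2, 39.1 and 48.8 in CA MCT piglets and 25.3, 28.6 and 37.6 in SA CON piglets, with overlapping groups.

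The gene with the lowest p of all was LOC100152327, which had 46.8, 63.0 and 118 in CA MCT piglets and 23.7, 39.0 and 45.5 in SA CON piglets, a log2 difference of 0.98 ± 0.235 (unadjusted p = 0.000314). The groups did not overlap, and the difference was 1.01 in CA CON and 0.37 in SA MCT. ASTE1, a gene named for its likeness to fly asteroid, had 30.3, 32.4 and 41.1 in CA MCT piglets, against 24.5, 26.5 and 29.1 in SA CON piglets. Its single differences were near 0 (-0.09 in CA CON and 0.01 in SA MCT), against a joint difference of 0.34 ± 0.103, and its interaction term was 0.42 (unadjusted p = 0.00781, adjusted p = 1.0). The interaction term is the joint difference less the sum of both single ones, and over all genes 275 (2.53%) had an unadjusted p under 0.05 for it and none passed after adjustment.

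TTLL8, a glycine ligase of tubulin in cilia, and BSX, a homeobox gene of the hypothalamus and pineal gland, were also among the 10 genes with the highest test statistic, with differences of 0.25 ± 0.0668 and 0.31 ± 0.0868. Both were dim (11.6 to 13.4 and 7.04 to 9.89 in CA MCT piglets, against 9.60 to 10.9 and 6.17 to 6.91 in SA CON piglets), below the median of every array. The cluster named RPS15A was dim as well, with 6.90, 7.36 and 15.5 in CA MCT piglets and 5.39, 6.14 and 6.89 in SA CON piglets. Ribosomal protein genes have many near-identical copies, so what this cluster reads is uncertain.

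RNF5, UCHL5 and PPID were among the 10 genes with the lowest test statistic. RNF5, a ubiquitin ligase of the endoplasmic reticulum membrane, had 139, 148 and 162 in CA MCT piglets, against 170, 176 and 183 in SA CON piglets. The groups did not overlap, and the log2 difference was -0.24 ± 0.0721 (unadjusted p = 0.00288). CA CON piglets had 117, 139 and 164, also all below the SA CON piglets, and SA MCT piglets 149, 172 and 175, so that the difference from SA CON was -0.34 with the complex association alone and -0.08 with the diet alone. UCHL5, a deubiquitinase that binds the proteasome, had 242, 306 and 331 in CA MCT piglets and 329, 361 and 449 in SA CON piglets, with a difference of -0.33 ± 0.0984. The groups overlapped only at their edge. PPID, a cyclophilin that works with the chaperone HSP90, had 91.5, 102 and 111 in CA MCT piglets, against 103, 123 and 141 in SA CON piglets (-0.26 ± 0.0831).

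Other genes at the low end were ACVR1C, a receptor of activins and nodal, and YBX3, a cold shock protein that binds RNA. ACVR1C was dim and had 7.64, 8.37 and 10.2 in CA MCT piglets, against 9.83, 10.9 and 12.6 in SA CON piglets (log2 difference -0.38 ± 0.0996). YBX3 was bright and had 671, 766 and 778 in CA MCT piglets, against 796, 854 and 966 in SA CON piglets, with no overlap and a difference of -0.19 ± 0.0709. ATP2A3, a calcium pump of the endoplasmic reticulum, had 160, 189 and 211 in CA MCT piglets and 189, 237 and 256 in SA CON piglets (-0.27 ± 0.0903), with overlap.

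**Figure D2:**
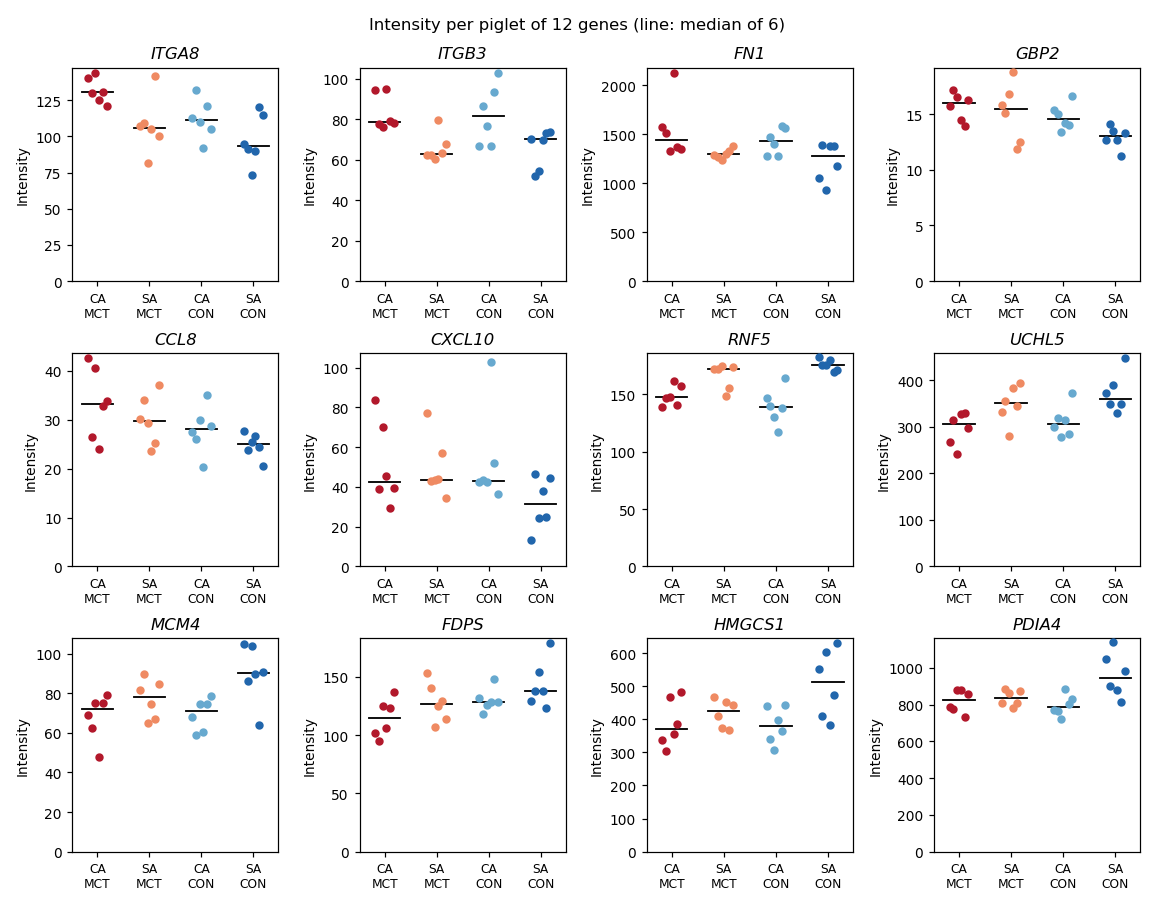
Intensity per piglet (y axis, from 0) of 12 genes in CA MCT, SA MCT, CA CON and SA CON piglets, 1 point per piglet, with a line at the median of 6. ITGA8, ITGB3 and RNF5 separate all 6 CA MCT from all 6 SA CON piglets, and the other 9 genes overlap.

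In several gene lists most members lay on one side of 0, although none passed the test. For reference, 50.3% of all genes had a difference above 0 and 49.7% below 0. An unadjusted p under 0.05 by limma's test was found for 1.36% of all genes on the high side and 1.19% on the low side. The members of a list are coexpressed in the same piglets, so the counts below describe these 12 piglets and were not tested.

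All 13 measured genes of cholesterol synthesis had a difference below 0, with a median of -0.18 against 0.0008 over all genes. Of them 5 had an unadjusted p under 0.05, against 1.19% of all genes on the low side. HMGCS1, the synthase that makes HMG-CoA in the cytosol, had 303, 370 and 482 in CA MCT piglets, against 382, 512 and 629 in SA CON piglets, a difference of -0.38 ± 0.131. SQLE, squalene epoxidase, had 151, 238 and 272 in CA MCT piglets and 251, 291 and 334 in SA CON piglets (-0.35 ± 0.127). FDPS, which makes farnesyl pyrophosphate, had 95.3, 115 and 137 in CA MCT piglets and 123, 138 and 179 in SA CON piglets (-0.32 ± 0.103). All 3 genes overlapped between the groups.

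Each single change also left all 13 cholesterol genes below SA CON, with a median of -0.13 in CA CON and -0.16 in SA MCT. These 3 differences share the SA CON piglets. The list mean per piglet was -0.28 to 0.13 in CA MCT and -0.03 to 0.30 in SA CON, and the groups overlapped. Without pigs 10 and 18 the median was -0.16 with 12 of 13 below 0. ACLY, which supplies acetyl-CoA for sterols and fatty acids, had 279, 352 and 365 in CA MCT piglets and 345, 393 and 466 in SA CON piglets (-0.22 ± 0.0984), whereas fatty acid synthesis as a list was split, with 7 of 15 genes higher and a median of -0.002 (-0.038 to 0.009 as single piglets were left out).

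DNA replication showed the same one-sidedness, with all 20 measured genes below 0 and a median of -0.17. MCM4, a subunit of the helicase that opens replication origins, had 47.7, 71.9 and 79.1 in CA MCT piglets, against 64.0, 90.0 and 105 in SA CON piglets (-0.40 ± 0.126), and it was the 1 gene of the list with an unadjusted p under 0.05. CDC6, which loads that helicase, had 19.6, 24.4 and 30.6 in CA MCT piglets and 22.3, 30.7 and 36.6 in SA CON piglets (-0.31 ± 0.152). CDC45, a partner of the helicase, had 93.6, 109 and 116 in CA MCT piglets and 84.6, 130 and 164 in SA CON piglets (-0.21 ± 0.115). In CA CON 19 of the 20 genes lay below SA CON (median -0.21) and in SA MCT 17 (median -0.09).

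The replication list depended in size on single piglets, with a median of -0.10 and 17 of 20 genes below 0 without pigs 10 and 18. Mitosis depended on them in direction. Of its 26 genes 19 were below 0 (median -0.07), but without pigs 10 and 18 only 4 were, and the median turned to 0.12. Leaving out pig 10 alone gave 0.026, leaving out pig 18 alone 0.038 and leaving out SA CON pig 17 alone -0.21 with all 26 below 0. The mitosis mean of pig 18 was 0.56 and that of pig 17 was -0.56, the 2 ends of all 12 piglets, and CA MCT ran from -0.45 (pig 10) to 0.20. No direction can be read for mitosis.

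Genes of protein handling lay below 0 as well. In the proteasome list all 14 measured genes did (median -0.11), in ER to Golgi transport 17 of 19 (-0.11), among heat shock chaperones 16 of 17 (-0.14), among genes of the unfolded protein response and ER chaperones 23 of 28 (-0.10) and in ribosome biogenesis 25 of 30 (-0.075). The proteasome median was -0.054 without pigs 10 and 18, with 12 of 14 below 0, and -0.068 without pig 18 alone, and the ribosome biogenesis median was -0.045 without SA CON pig 13, with 20 of 30 below 0. An unadjusted p under 0.05 was found for 4 genes of ER to Golgi transport, 4 of the ER chaperones, 2 each of the proteasome and ribosome biogenesis, and 1 heat shock gene. All were on the low side, where 1.19% of all genes had such a p.

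PSMB6, a catalytic subunit of the proteasome, had 534, 558 and 675 in CA MCT piglets and 594, 638 and 796 in SA CON piglets (-0.22 ± 0.0786). PDIA4, a disulfide isomerase of the endoplasmic reticulum, had 732, 823 and 881 in CA MCT piglets, against 816, 942 and 1140 in SA CON piglets (-0.23 ± 0.0787), and DNAJB9, a cochaperone of BiP, had 121, 153 and 185 in CA MCT piglets and 142, 186 and 229 in SA CON piglets (-0.31 ± 0.124). Both ER genes were also low with one change alone (PDIA4 -0.27 in CA CON and -0.20 in SA MCT, DNAJB9 -0.26 and -0.24), so that the joint difference was close to either one. For PDIA4 the interaction term was 0.24 (unadjusted p = 0.0443).

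SEC23B, a coat subunit of vesicles that leave the endoplasmic reticulum, had 202, 230 and 248 in CA MCT piglets and 234, 258 and 365 in SA CON piglets (-0.26 ± 0.104). COPB1, a coat subunit of vesicles that return to it, had 168, 200 and 211 in CA MCT piglets and 198, 220 and 253 in SA CON piglets (-0.20 ± 0.0757). NOP14, needed to make the small ribosomal subunit, had 36.1, 48.8 and 53.7 in CA MCT piglets, against 49.0, 57.9 and 66.5 in SA CON piglets (-0.29 ± 0.104). The groups overlapped in each of them. Of the epithelial markers 8 of 9 also lay below 0 (median -0.095). Their summed intensity was 7110 to 9100 in CA MCT piglets and 7540 to 9870 in SA CON piglets. Their list mean was -0.15 to 0.15 in CA MCT and -0.21 to 0.47 in SA CON, and the median was 0.0 without pig 18, 0.015 without pigs 10 and 18, and -0.18 without SA CON pig 17. The part of cell composition in these lists was not tested.

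**Figure D3:**
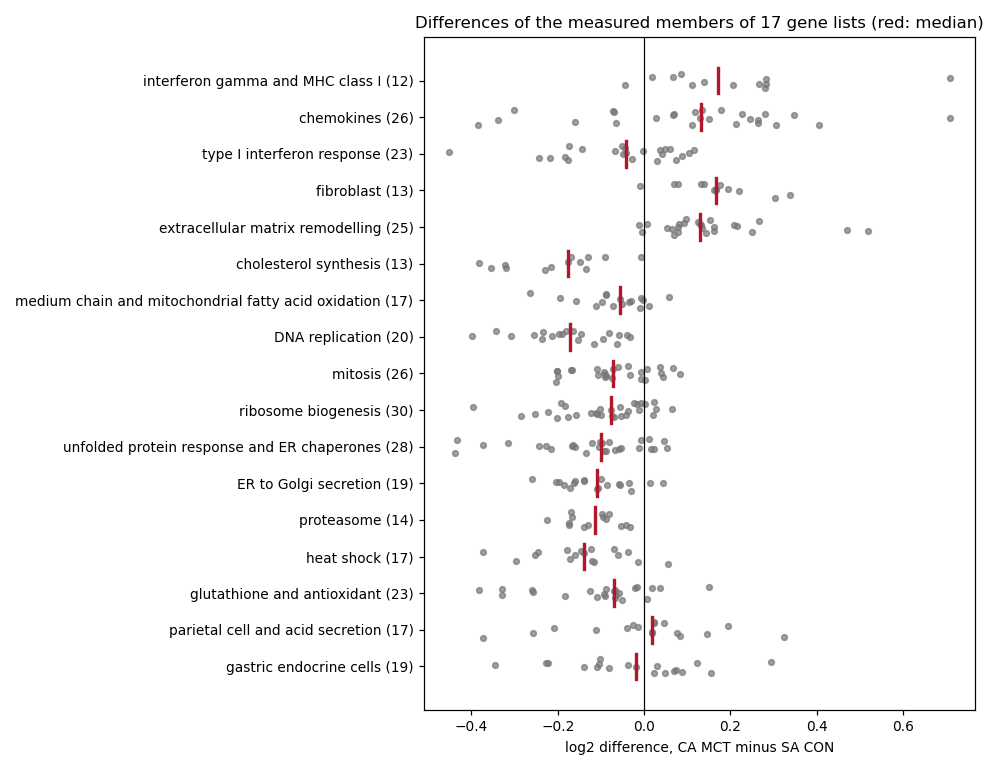
Log2 difference of CA MCT minus SA CON (x axis) of the measured members of 17 gene lists, 1 grey point per gene (spread vertically for clarity), with a red bar at the median and the number of genes in brackets. Cholesterol synthesis, DNA replication and the proteasome lie wholly below 0, and extracellular matrix remodelling lies above 0 in 23 of 25 genes.

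On the high side stood connective tissue. Of 13 fibroblast markers 12 had a difference above 0 (median 0.17) and of 25 genes of extracellular matrix remodelling 23 had (median 0.13). Beside FN1, the leading fibroblast marker was THY1, a surface glycoprotein of fibroblasts and nerves, with 88.5, 115 and 133 in CA MCT piglets and 68.4, 89.3 and 140 in SA CON piglets (0.30 ± 0.135). DCN, the collagen-binding proteoglycan decorin, had 1470, 1680 and 1930 in CA MCT piglets and 1160, 1530 and 1760 in SA CON piglets (0.17 ± 0.0828). Both overlapped between the groups.

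SERPINE2, an inhibitor of thrombin and plasminogen activators, was the 1 gene of matrix remodelling with an unadjusted p under 0.05, with 39.2, 48.5 and 59.1 in CA MCT piglets and 32.5, 40.7 and 54.2 in SA CON piglets (0.27 ± 0.116). LOX, which crosslinks collagen, had 402, 465 and 605 in CA MCT piglets and 305, 427 and 551 in SA CON piglets (0.21 ± 0.115). The matrix list mean was 0.01 to 0.12 in CA MCT piglets and -0.27 to 0.09 in SA CON piglets, 3 of which (pigs 13, 15 and 18) lay at or below -0.21. Without pigs 10 and 18 the matrix median was 0.07, with 19 of 25 genes above 0, and it was 0.083 without pig 15 alone and 0.082 without pig 18 alone. The fibroblast median was 0.09 without pig 15. The summed intensity of the fibroblast markers was 11700 to 14500 in CA MCT piglets and 9170 to 13300 in SA CON piglets.

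Smooth muscle markers gave no direction. Of 8 genes 7 lay below 0 (median -0.06), but without SA CON pig 14 all 8 lay above 0 (median 0.074), and with arrays weighted by quality 6 did (0.032). Their list mean ran from -0.24 to 0.51 (pig 7) in CA MCT and from -0.39 to 0.74 (pig 14) in SA CON. Of 8 endothelial markers 5 lay below 0 (median -0.03), all 8 did without pigs 10 and 18 (-0.059), and 3 did without CA MCT pig 12 (0.063).

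Interferon gamma targets and chemokines lay mostly above 0. Of 12 interferon gamma and MHC class I genes, 11 had a difference above 0 (median 0.17). Of these 11, 4 had an unadjusted p under 0.05, against 1.36% of all genes on the high side. GBP2, a guanylate binding protein induced by interferon, had 13.9, 16.0 and 17.2 in CA MCT piglets and 11.2, 13.0 and 14.1 in SA CON piglets (0.28 ± 0.0952), with overlap at the edge. CIITA, the master activator of MHC class II genes, had 18.4, 21.1 and 26.1 in CA MCT piglets and 17.1, 18.9 and 19.2 in SA CON piglets (0.21 ± 0.087). Both genes are dim on these arrays.

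CXCL10, the interferon-induced chemokine that attracts activated T cells, had 29.2, 42.3 and 83.6 in CA MCT piglets, against 13.1, 31.3 and 46.6 in SA CON piglets (0.71 ± 0.297, a 1.63-fold higher value, unadjusted p = 0.0248). The groups overlapped widely. Its differences from SA CON were 0.77 in CA CON and 0.72 in SA MCT, so that both changes together gave no more than each alone, with an interaction term of -0.78 (unadjusted p = 0.0739). The list mean of interferon gamma genes was -0.24 to 0.33 in CA MCT piglets and -0.42 to -0.03 in SA CON piglets.

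Of 26 chemokines 19 lay above 0 (median 0.13). With an unadjusted p under 0.05, 4 were higher and 1 was lower, against 1.36% and 1.19% of all genes. The interferon gamma list and this one share CXCL10, the highest member of each (0.71), so their counts overlap. CCL8, a chemokine for monocytes, eosinophils and T cells, had 24.1, 33.3 and 42.6 in CA MCT piglets and 20.6, 25.0 and 27.7 in SA CON piglets (0.41 ± 0.14). CXCL8, which attracts neutrophils, had 19.9, 22.6 and 26.3 in CA MCT piglets and 11.4, 18.5 and 27.3 in SA CON piglets (0.35 ± 0.167). On the other side CCL27, a chemokine of epithelia, had 10.3, 12.1 and 13.0 in CA MCT piglets, against 12.1, 14.8 and 18.4 in SA CON piglets (-0.30 ± 0.114). TNF had 27.4, 31.3 and 38.3 in CA MCT piglets and 22.6, 25.2 and 30.4 in SA CON piglets (0.30 ± 0.116), and 14 of 19 genes downstream of TNF and NF-kB lay above 0 (median 0.06). The median of that list ran from 0.053 to 0.103 as single piglets were left out, highest without CA MCT pig 11.

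Markers of immune cells showed small values beside these genes, and they moved with single piglets. Of 13 T cell markers 10 lay above 0 (median 0.05), but without CA MCT pig 9 only 5 did (-0.005), and without pigs 10 and 18 there were 11 (0.111), with a list mean of -0.34 to 0.25 in CA MCT and -0.17 to 0.09 in SA CON. B and plasma cell markers leaned the other way, with 5 of 6 below 0 (median -0.047), but 3 without SA CON pig 18 (-0.041). Of 15 myeloid markers 11 lay above 0 (median 0.03), but 8 without SA CON pig 15 (0.0) and 8 without pigs 10 and 18 (0.01). Of 9 neutrophil markers 8 lay above 0 (median 0.07), and 7 without SA CON pig 18 (0.02). The exception, PGLYRP1, a peptidoglycan recognition protein of neutrophil granules, had 9.06, 13.9 and 15.3 in CA MCT piglets and 13.9, 15.7 and 18.4 in SA CON piglets (-0.28 ± 0.125). TLR4, the receptor of lipopolysaccharide, had 70.8, 80.9 and 92.0 in CA MCT piglets and 56.5, 63.7 and 91.6 in SA CON piglets (0.21 ± 0.12).

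Of all lists, the type I interferon genes had the largest median interaction term. Of 23 genes 9 were above and 14 below 0 in CA MCT against SA CON (median -0.04), while the medians from the same SA CON piglets were 0.19 in CA CON, with 3 of 23 below 0, and 0.26 in SA MCT, with 0 of 23 below 0. That term was -0.58, and no gene of the list passed. RSAD2, the antiviral protein viperin, had 7.65, 12.9 and 21.7 in CA MCT piglets, 8.47, 21.0 and 92.3 in SA MCT piglets, 11.8, 17.4 and 36.3 in CA CON piglets and 11.8, 18.6 and 28.7 in SA CON piglets. All groups overlapped.

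Single piglets set the spread of these genes. The type I list mean was -0.49 (pig 11) to 0.23 (pig 9) in CA MCT and -0.45 (pig 13) to 0.20 (pig 18) in SA CON. It spread most widely in SA MCT, from -0.53 to 1.12, and ran from -0.23 to 0.44 in CA CON. The interaction term of the list also rests on these piglets, and it is not given with any of them left out. The joint median moved between -0.09 and 0.05 as each of the 12 piglets was left out. Without pigs 10 and 18 it was 0.029, with 15 of 23 genes above 0, and with arrays weighted by quality 0.071, with 17 above 0. Likewise, MMP3, the protease stromelysin, had 14.5, 18.0 and 36.2 in CA MCT piglets, 18.4, 26.0 and 35.8 in SA MCT piglets, 13.0, 26.2 and 33.0 in CA CON piglets and 13.5, 15.9 and 21.3 in SA CON piglets. The joint difference was 0.25 ± 0.217 against single differences of 0.63 in SA MCT and 0.53 in CA CON, and the interaction term of -0.92 had an unadjusted p of 0.0064. CCL2, a chemokine for monocytes, gave 0.21 ± 0.204 jointly, with 0.57 in SA MCT and 0.29 in CA CON (interaction -0.64, unadjusted p = 0.0356), and CXCL11, a relative of CXCL10, gave 0.28 ± 0.227, with 0.34 and 0.66 (interaction -0.72, unadjusted p = 0.0349). None of these interaction terms passed after adjustment over all genes.

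**Figure D4:**
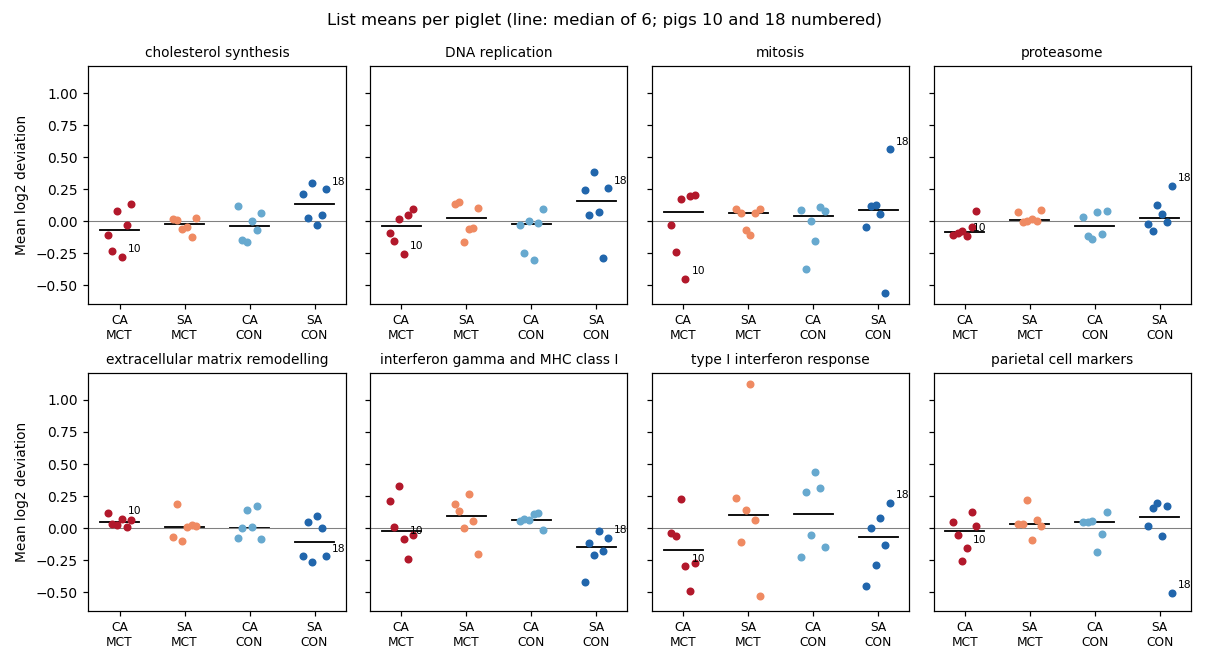
Mean log2 deviation of 8 gene lists from their average over all arrays (y axis) per piglet, in CA MCT, SA MCT, CA CON and SA CON, with a line at the median of 6 and the numbers of pigs 10 and 18. In every panel the CA MCT and SA CON piglets overlap, and pig 18 lies at -0.50 for the parietal cell markers.

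Of the genes of the gland's own functions, those of the proton pump lay close to 0. ATP4A, the catalytic subunit of the proton pump, had 3390, 3600 and 3700 in CA MCT piglets and 3030, 3650 and 3750 in SA CON piglets, a log2 difference of 0.02 with a 95% interval of -0.10 to 0.15. ATP4B, its beta subunit, had 2330, 2720 and 2870 in CA MCT piglets and 2330, 2710 and 2810 in SA CON piglets (0.02, -0.12 to 0.16). A change of either pump subunit by 0.2 or more on the log2 scale in either direction lay outside its interval. Without pig 18 the 2 differences were -0.018 and -0.016.

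Among other parietal cell genes, KCNJ15, a potassium channel of the acid-secreting membrane, had 599, 720 and 761 in CA MCT piglets and 378, 663 and 708 in SA CON piglets (0.19, -0.05 to 0.44), and the value of 378 was that of pig 18. AQP4, the water channel of the parietal cell's basal side, had 201, 368 and 504 in CA MCT piglets and 246, 482 and 737 in SA CON piglets (-0.37, -0.92 to 0.17). CCKBR, the gastrin receptor, had 67.8, 105 and 138 in CA MCT piglets and 63.4, 142 and 151 in SA CON piglets (-0.26, -0.63 to 0.12), with pig 18 again the lowest. KCNE2, the potassium channel subunit that lets the pump work, differed by -0.03 (-0.39 to 0.34). Of 17 genes of acid secretion 10 lay above 0 (median 0.02), and without pig 18 there were 7 (median -0.018) and without pigs 10 and 18 there were 8 (-0.003). Of 14 measured genes of the oxyntic set that the study compiled, 9 lay above 0 (median 0.045), but 3 did without pig 18 (-0.074). Against SA CON, 12 of the 14 lay above 0 in CA CON and 13 in SA MCT.

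The intervals of the pepsinogen and mucin genes named here also included 0. PGC, pepsinogen C, had 1850, 2210 and 2650 in CA MCT piglets and 2140, 2410 and 2700 in SA CON piglets (-0.13, -0.33 to 0.07), and PGA5, pepsinogen A, differed by 0.01 (-0.14 to 0.16). The difference of BHLHA15, another chief cell marker, ranged from -0.58 to -0.28 as single piglets were left out. LYZ, lysozyme, had 662, 1050 and 1380 in CA MCT piglets and 1060, 1170 and 2040 in SA CON piglets (-0.35, -0.80 to 0.10), where the highest value was that of pig 18. MUC13, a membrane mucin of the gut, had 72.2, 130 and 282 in CA MCT piglets, against 54.2, 78.2 and 136 in SA CON piglets (0.63, -0.04 to 1.30). Its median was 137 in SA MCT and 73.4 in CA CON piglets, so the higher medians were those of both MCT groups. DUOXA2, which matures the peroxide-forming oxidase of mucosal defence, had 28.5, 52.4 and 78.7 in CA MCT piglets and 26.6, 38.8 and 49.9 in SA CON piglets (0.43, -0.04 to 0.91).

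GHRL, the gene of ghrelin, had 644, 828 and 1180 in CA MCT piglets and 681, 992 and 1010 in SA CON piglets (-0.14, -0.46 to 0.18). It was -0.17 in CA CON and 0.03 in SA MCT. MBOAT4, the enzyme that attaches octanoic acid to ghrelin, had 15.2, 23.6 and 30.0 in CA MCT piglets and 15.8, 22.3 and 29.3 in SA CON piglets (0.02, -0.35 to 0.40). The RNA of neither the hormone nor its acylating enzyme thus differed detectably. The ghrelin peptide and its acylation were not measured. Of 19 genes of gastric endocrine cells 9 lay above 0 (median -0.02), and without pig 10, whose endocrine list mean was -0.46, 13 did (median 0.096), while without CA MCT pig 12 there were 7 (-0.094). Without pigs 10 and 18 there were 15 (0.075). The growth factors EGF (0.13, -0.41 to 0.66) and IGF1 (0.18, -0.17 to 0.53) had wide intervals, and EGF was -0.17 without pig 18. HTR1B (0.26, -0.20 to 0.71) and CHRNA2 (0.24, -0.15 to 0.64), receptors of serotonin and acetylcholine, had intervals that included 0.

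Genes of fatty acid oxidation, the route by which medium chain fatty acids are burned, mostly lay just below 0. Of 17 genes of mitochondrial and medium chain fatty acid oxidation, 15 lay below 0, with a median of -0.06 that ranged from -0.10 without pig 18 to -0.03 without CA MCT pig 9. The count below 0 fell to 10 without pig 10 and to 11 when the arrays were quantile normalized again. Against SA CON, 11 of the 17 lay above 0 in CA CON and 6 in SA MCT. ACADM, the medium chain acyl-CoA dehydrogenase, had 199, 247 and 293 in CA MCT piglets and 204, 256 and 298 in SA CON piglets (0.01, -0.22 to 0.25). CPT1A, the carnitine transferase that long chain but not medium chain acids need, had 380, 386 and 425 in CA MCT piglets and 359, 424 and 475 in SA CON piglets (-0.10, -0.26 to 0.06). ACAA2, the last thiolase of the cycle, had 67.4, 105 and 127 in CA MCT piglets and 91.4, 133 and 137 in SA CON piglets (-0.27, -0.57 to 0.04). PPAR targets and ketone genes were split, with 8 of 14 above 0 (median 0.003, and -0.035 to 0.031 as single piglets were left out). Of 20 respiratory chain genes 13 lay above 0 (median 0.03), but 8 without pig 18 (-0.011), 8 without CA MCT pig 11 (-0.01) and 9 without pigs 10 and 18 (-0.001).

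**Figure D5:**
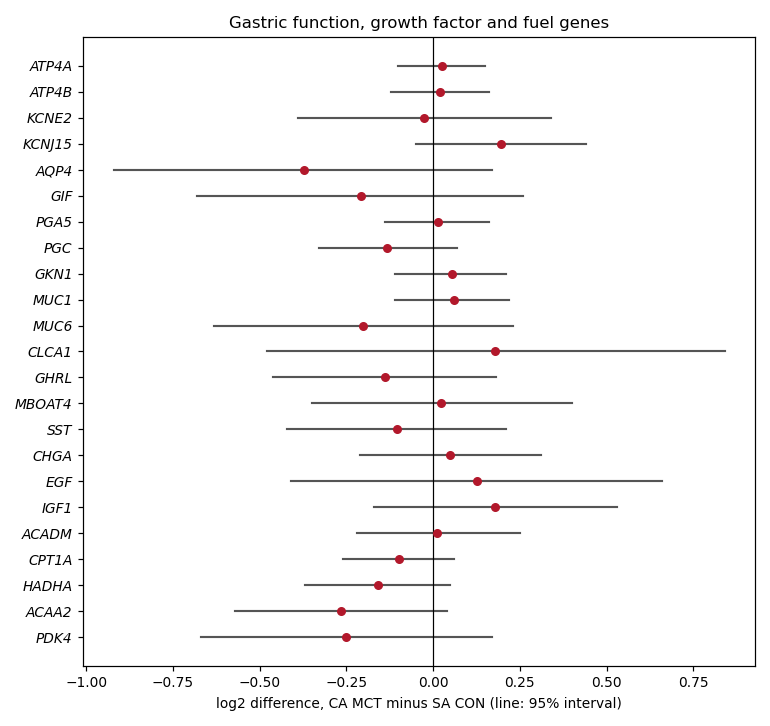
Log2 difference of CA MCT minus SA CON (x axis, point) with its 95% interval from limma (line) for 23 genes of gastric function, growth factors and fuel use. Every interval includes 0, and those of ATP4A, ATP4B and PGA5 lie within 0.16 of it.

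The largest negative difference of all genes was that of PNLIPRP2, a lipase related to pancreatic lipase, at -1.01 ± 0.375, or 2.01-fold lower in CA MCT (unadjusted p = 0.0126). It had 24.3, 30.2 and 40.4 in CA MCT piglets, 19.2, 50.8 and 62.4 in SA MCT piglets, 14.8, 26.3 and 42.7 in CA CON piglets and 25.4, 55.4 and 189 in SA CON piglets. The SA CON values spread widely and overlapped the CA MCT values, and both CA groups had the lower medians. Of 9 measured pancreas markers 7 lay above 0 (median 0.17), among them CLPS, colipase, with 13.2, 16.3 and 18.0 in CA MCT piglets and 8.75, 14.6 and 16.4 in SA CON piglets (0.27 ± 0.138). The other pancreas marker below 0 was PNLIP at -0.03 (named after its value was seen), and without CA MCT pig 11 the list median was 0.08, with 6 of 9 above 0.

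Genes of stress defence depended on pig 18. Of 23 genes of glutathione and antioxidant defence 19 lay below 0 (median -0.07), and without pigs 10 and 18 there were 12 (median -0.003). As single piglets were left out the median ran from -0.126 (without CA MCT pig 12) to -0.028 (without pig 18). The list mean was 0.47 in pig 18, against -0.13 to 0.02 in the other SA CON piglets and -0.16 to 0.17 in CA MCT piglets. GCLC, which makes the first step of glutathione synthesis, had 77.1, 122 and 157 in CA MCT piglets and 110, 146 and 259 in SA CON piglets (-0.33 ± 0.167). ATF3, a stress-induced transcription factor, had 68.8, 99.8 and 131 in CA MCT piglets and 77.9, 108 and 352 in SA CON piglets (-0.43 ± 0.271).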

How the data were processed

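Total RNA of the oxyntic mucosa was hybridised to Affymetrix Porcine Gene 1.1 ST arrays, 1 per piglet. Per the labels the authors summarised the arrays by Robust Multichip Analysis, and the deposited values were intensity on a linear scale, for 27558 transcript clusters. Log2 of the intensity was taken. Of these clusters 11939 had 1 symbol in the platform annotation, 416 had several and 15203 were not listed, and the brightest cluster per symbol was kept (958 symbols had several), which left 10882 genes. No genome build is given in the sources used here, so no coordinates are printed.

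One model of the 4 groups was fitted to all 24 arrays (limma 3.58.1, R 4.3.3, 20 residual degrees of freedom), with Benjamini-Hochberg adjustment over all genes. Errors are limma's SE and the 95% intervals come from the same fit. Piglets that shared a pen were treated as independent. Other settings varied the arrays fitted, their weights and normalization, the dim genes, the clusters and the piglets included. In simulated data with 50 genes changed per size, 33 were recovered at 0.5 and 50 at 1 on the log2 scale, with 11 false calls. The simulated noise was normal and independent between genes, and sizes of up to 3 were changed at once. Real genes vary together and some arrays stood apart, so these rates need not hold for the real data.

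The comparison, the lists and the rule for naming genes were chosen with earlier results of these data known. Named were the 10 highest and 10 lowest test statistics, up to 8 non-overlapping genes per direction, the 3 leading members of each list or marker list (33 and 21, of which the sex-linked list had 0 measured genes) and a fixed set of gastric and immune genes, 185 in all. List means are averages of each gene's log2 deviation from its mean over all arrays. Leaving out pigs 10 and 18 together was chosen after seeing the data.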

Additional observations from a re-analysis of the deposited data

Results flagged for a closer look

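In 35 of the 370 groups checked (185 named genes in CA MCT and in SA CON, 6 piglets each), one piglet stood so far from the other 5 that its gap to the nearest, as a share of the group's range, exceeded Dixon's critical value at the 95% level. Chance alone gives about 1 such group in 20. The shares of the range are given in brackets.

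CA MCT pig 10 gave 14 of them. It was highest in ALOX15 (0.848), a lipoxygenase of eosinophils and macrophages, with 81.0 against 6.86 to 9.98 in the other CA MCT piglets, and in the muscle genes MYL1 (0.833) and MYLPF (0.678), SI (0.782), RPS15A (0.738), LOC100516511 (0.707), THRSP (0.707), NOS1 (0.654) and FN1 (0.643). It was lowest in ACLY (0.806), RSL1D1 (0.691), CDC45 (0.664), SQLE (0.659) and PGA5 (0.659). SA CON pig 18 gave 5, the highest LYZ (0.701) and the lowest CCKBR (0.70), KCNJ15 (0.69), ALAS2 (0.68) and CASP1 (0.634).

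CA MCT pig 9 was lowest in YBX3 (0.813), LOC100156587 (0.79) and DNAJA1 (0.771), the last with 306 against 454 to 510, and highest in ZBP1 (0.675). CA MCT pig 7 was highest in PLIN4 (0.754) and TPM2 (0.661). CA MCT pig 12 was highest in PSMB6 (0.746) and lowest in CLCA1 (0.64), and CA MCT pig 11 was lowest in GSTA1 (0.711).

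Among the other SA CON piglets, pig 13 was lowest in GHRL (0.856), with 681 against 952 to 1010, and highest in LOC100156587 (0.729) and FKBP4 (0.682). Pig 17 was highest in GZMH (0.706) and lowest in LIPE (0.684), pig 14 was highest in THRSP (0.683) and pig 16 was highest in HADHA (0.676).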

How the results depend on the processing

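No setting gave a gene with an adjusted p under 0.05, for the comparison or for the interaction where it was recomputed. The lowest adjusted p was 0.639 with array weights, 0.778 without pigs 4 and 10 and 0.992 to 1.0 otherwise. The counts at an unadjusted p under 0.05 moved more. They were 308 higher and 289 lower with array weights, 367 and 328 over all transcript clusters, 238 higher without pigs 4 and 10, and 76 higher without the 40% dimmest genes, which leaves fewer genes to test. Leaving out 1 piglet gave 135 to 205 higher and 106 to 247 lower genes, the last without SA CON pig 17. Without pigs 10 and 18 there were 136 and 117. For array weights and the left-out piglets the cause was not tested.

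Some differences changed sign, and none of them passed the test in any setting. Not all were close to 0, as CCNA2 lay between -0.32 and -0.07 with single piglets left out. With array weights EGF was -0.014, MYL1 -0.06, MYLPF -0.048, PLIN1 -0.046 and SST 0.036. After quantile normalization KCNE2 was 0.001, MBOAT4 -0.002 and MYL1 -0.011. With the mean of all clusters CD79A was 0.068 and PDX1 -0.002. Without pigs 4 and 10 MYL1 was -0.077, MYLPF -0.104 and PLIN1 -0.021. Without pigs 10 and 18 ATP4A was -0.01, ATP4B -0.021, CCNA2 0.046, EGF -0.214, KDR -0.038, KRT15 0.038, MYL1 -0.075, MYLPF -0.073, PLIN1 -0.027, SST 0.018 and VWF -0.038.

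As each piglet was left out, ACADM ranged from -0.041 to 0.075, ATP4A from -0.018 to 0.044, ATP4B from -0.016 to 0.059, CHGA from -0.004 to 0.098, EGF from -0.169 to 0.272, KCNE2 from -0.178 to 0.117, KRT15 from -0.146 to 0.045, LIPE from -0.172 to 0.001, MBOAT4 from -0.073 to 0.135, MYL1 from -0.077 to 0.046, MYLK from -0.133 to 0.055, MYLPF from -0.104 to 0.181, PGA5 from -0.047 to 0.049, PLIN1 from -0.021 to 0.18, PLIN4 from -0.205 to 0.002 and TPM2 from -0.31 to 0.033. No paired analysis was possible because every piglet had its own number. For 3 of the 16 named genes with several clusters (CD79A, FKBP4 and PDX1) the clusters differed in sign.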
